A study of Drosophila melanogaster with 2 samples.

Results

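The ecdysone response transcription factor genes are 10 Drosophila melanogaster genes chosen by symbol: EcR, usp, Eip74EF, Eip75B, Eip78C, Eip93F, br, Hr39, Hr4 and ftz-f1. All 10 were found among the 13945 protein-coding genes annotated on the 6 chromosome arms analysed. Their peaks come from chromatin immunoprecipitation followed by sequencing (ChIP-seq) of CG10979 carrying a green fluorescent protein tag at its C terminus. Embryos of both sexes, 0 to 14 h old, were taken whole from 1 stable transgenic line, and the tag was precipitated with an antibody. The study has 1 group of 2 biological replicates, numbered 2 and 3, with no second genotype, treatment or stage to compare. Signal from whole embryos cannot be assigned to a cell type, and the lists hold no read counts, so that depth is unknown.

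Ecdysone is the steroid hormone that times moulting, metamorphosis and late embryonic morphogenesis in insects. Its receptor is a heterodimer of the nuclear receptors EcR and usp, which switches on a small set of early genes for transcription factors. Many of these early genes are long and have several alternative promoters, from which different protein isoforms are made, and their products in turn control later genes.

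The peaks, on genome build dm6, come from 4 deposited lists. Replicate 2, replicate 3 and their pool are each covered by a permissive (relaxed) list with 30000 entries. The IDR list holds 7630 of the pooled peaks and is named for the irreproducible discovery rate, which scores how alike peaks rank in the replicates. The signal value is a score by which the authors' peak caller rated each peak, and its lowest value in the IDR list was 189.9. For the IDR peaks near starts of the 10 genes, the rank by signal value was equal in the IDR and pooled lists, such as 6364 at Eip74EF. A place in the IDR list thus does not show that a single peak was found alike in both replicates. A gene was said to have a start peak when an IDR summit, the highest base of a peak, lay within 500 bp of any annotated transcript start. By this rule 4 of the 10 genes had a start peak (40%), against 25.2% of all protein-coding genes. Genes with several promoters offer more starts: of protein-coding genes with 2 or more separate start clusters, where starts no more than 500 bp apart form a cluster, 42.3% had a start peak, and of the 9 such members 4 had one. The share of members was thus close to that of other genes with several promoters.

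Counted by promoter, 5 of the 30 start clusters of the 10 genes had an IDR summit (16.7%). Among the 9 members with several promoters it was 17.2% of 29 clusters, beside 21.6% over all clusters of such protein-coding genes. The 5 were the start of Eip75B-RC, both starts of usp, the start shared by EcR-RD and EcR-RE, and the start shared by Eip74EF-RA, Eip74EF-RC and Eip74EF-RE. In 4 of these 5 the summit lay upstream of the start. A further 10 clusters had only a pooled peak under the IDR threshold, and 15 had no peak in any relaxed list. Neither these counts nor that of upstream summits were made for the start clusters of all genes. With relaxed peaks included, 7 of the 10 genes had a peak at a start, and Eip78C, Eip93F and br had none. Over all protein-coding genes, with any number of start clusters, the share was 54.1%. This share was not matched to genes with several promoters.

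**Figure D1:**
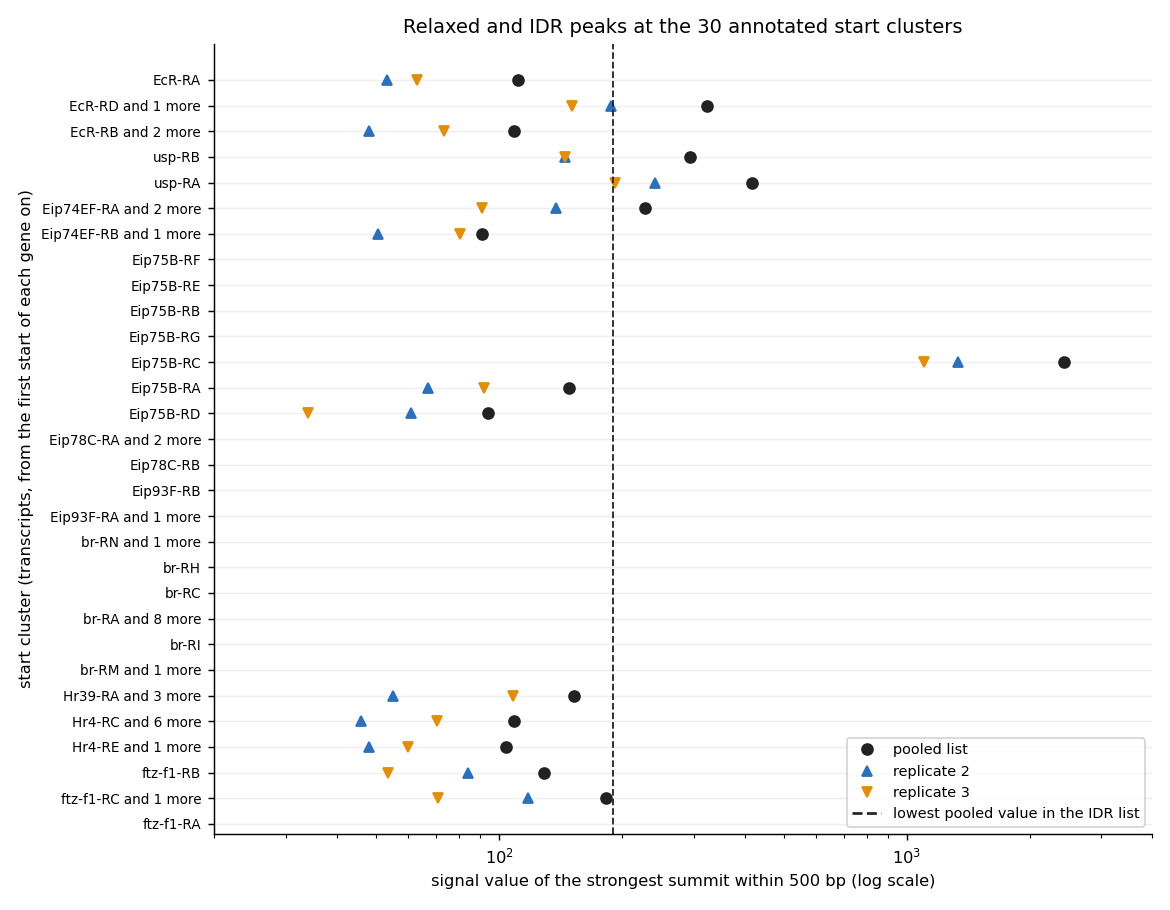
Signal value (log scale) of the strongest summit within 500 bp of each of the 30 start clusters, in the pooled list (circles), replicate 2 (upward triangles) and replicate 3 (downward triangles); rows without a symbol had no relaxed peak, and the dashed line is the lowest pooled value of the IDR list, 189.9. Eip75B-RC stands apart at 2428.4, the ftz-f1-RC cluster lies just under the line at 182.7, and all 6 br clusters are empty.

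Away from starts the genes held many more summits. The spans of the 10 genes, extended by 5 kb to either side, took in 56 IDR summits. Introns held 37 of these (66.1%), starts 5, exons 3, the flank before the gene 3 and the flank behind it 8. The same split was not made for all IDR peaks, so that it is not shown to be particular to these genes. At least 1 IDR summit lay in the extended span of 9 of the 10 genes, beside 58.1% of all protein-coding genes and 73.5% of the 1013 genes of at least 20 kb. Of the 9 members of that length, 8 had one. Eip75B and Hr4 had 14 summits each, together 28 of the 56. Of genes of at least 20 kb, 2.27% had 14 or more, and their median was 2. The other counts were 7 at Eip74EF, 6 at EcR, 5 at ftz-f1, 3 at Eip78C, 3 at br, 2 at usp, 2 at Hr39 and 0 at Eip93F.

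**Figure D2:**
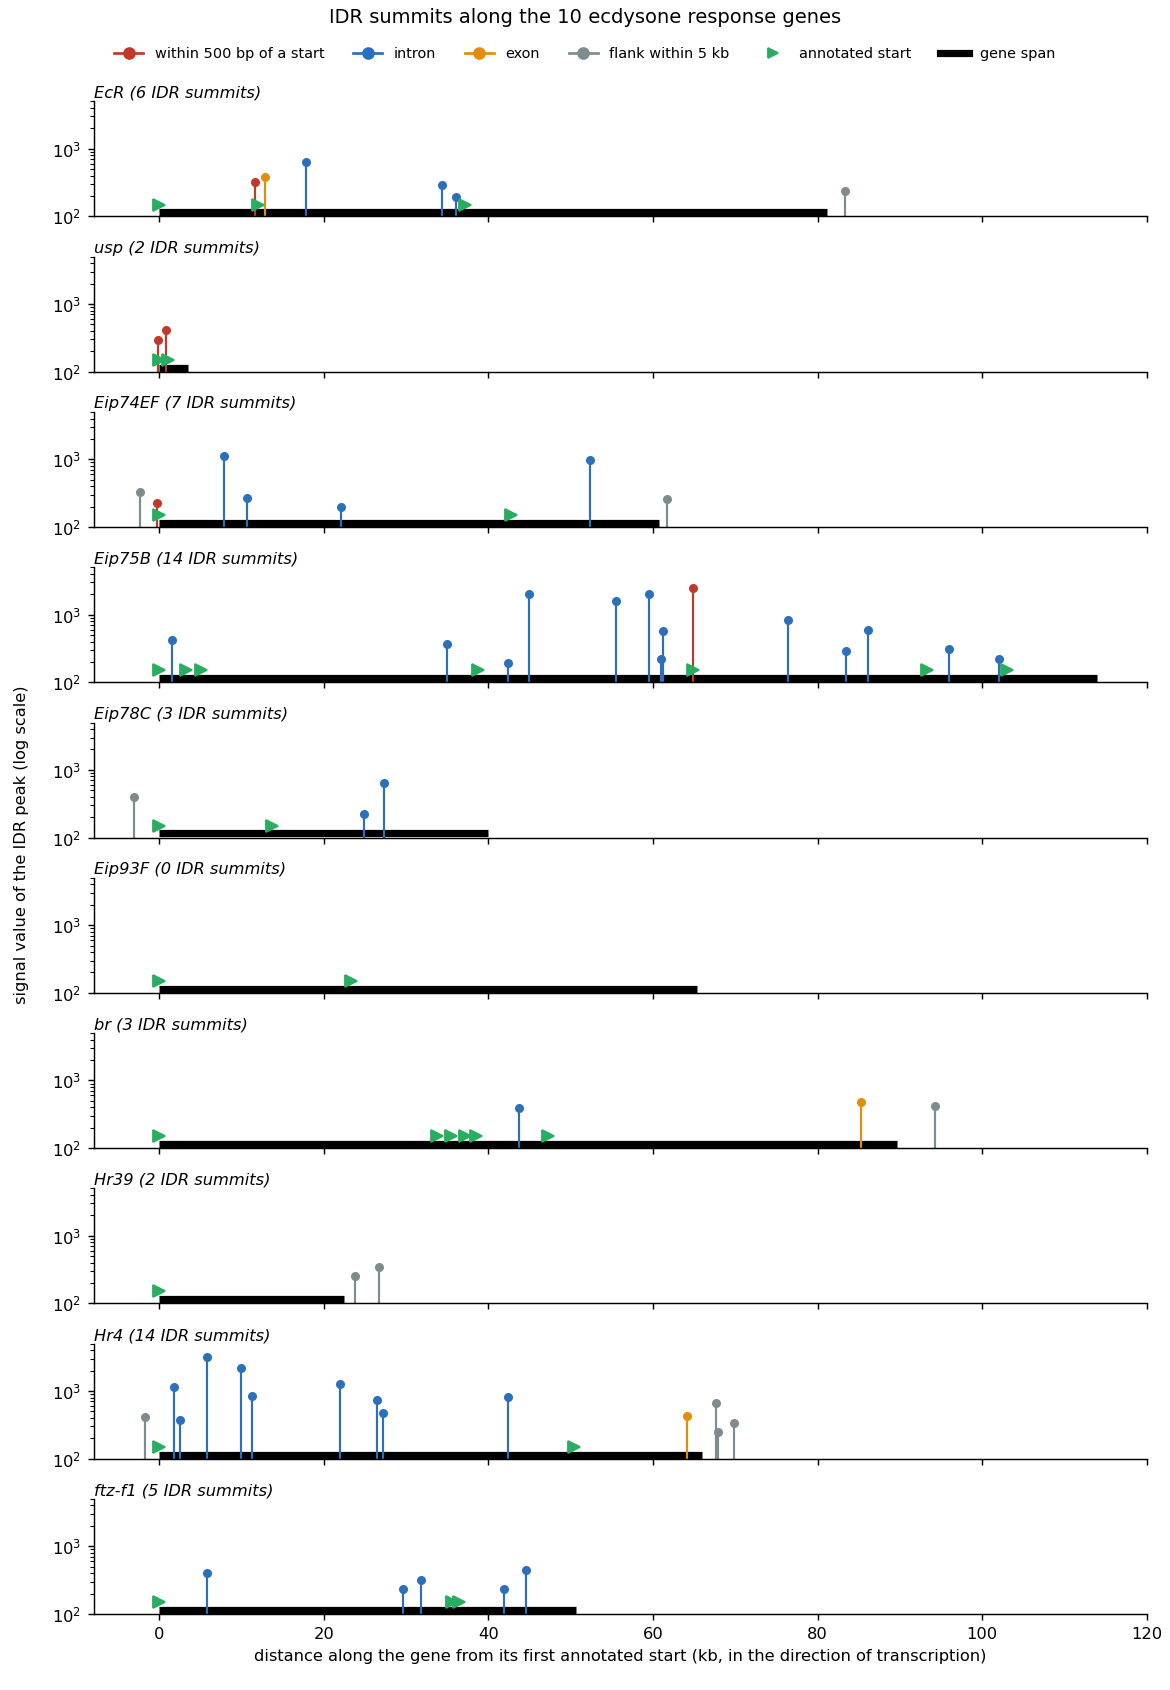
IDR summits along each of the 10 genes, drawn by distance in kb from the first annotated start in the direction of transcription, with the signal value on a log axis; the black bar is the gene span, triangles are annotated starts, and colours give the location of the summit. Hr4 and Eip75B carry 14 summits each, mostly blue for introns, whereas Eip93F carries none.

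The number of summits did not follow length alone. Relative to length, Hr4 had 1.84 IDR summits per 10 kb of extended span and ranked 45 of the 1013 genes of at least 20 kb, in which the median was 0.453. Eip75B had 1.13 per 10 kb (rank 194) and Eip74EF 0.991 (rank 236). Below the median were br, with 0.301 per 10 kb (rank 583), and Eip93F, with 0 (rank 746). The members as a whole had 0.808 per 10 kb, against 0.57 over the 6 arms. Without Eip75B and Hr4, the other 8 had 0.567 per 10 kb. The relaxed pooled list showed 289 summits in these spans, of which 19.4% were IDR summits, against 25.4% in the whole pooled list. The genes with the most IDR summits in their extended spans were kirre with 37, CG1677 with 21 and hth with 20, all longer than 100 kb.

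**Figure D3:**
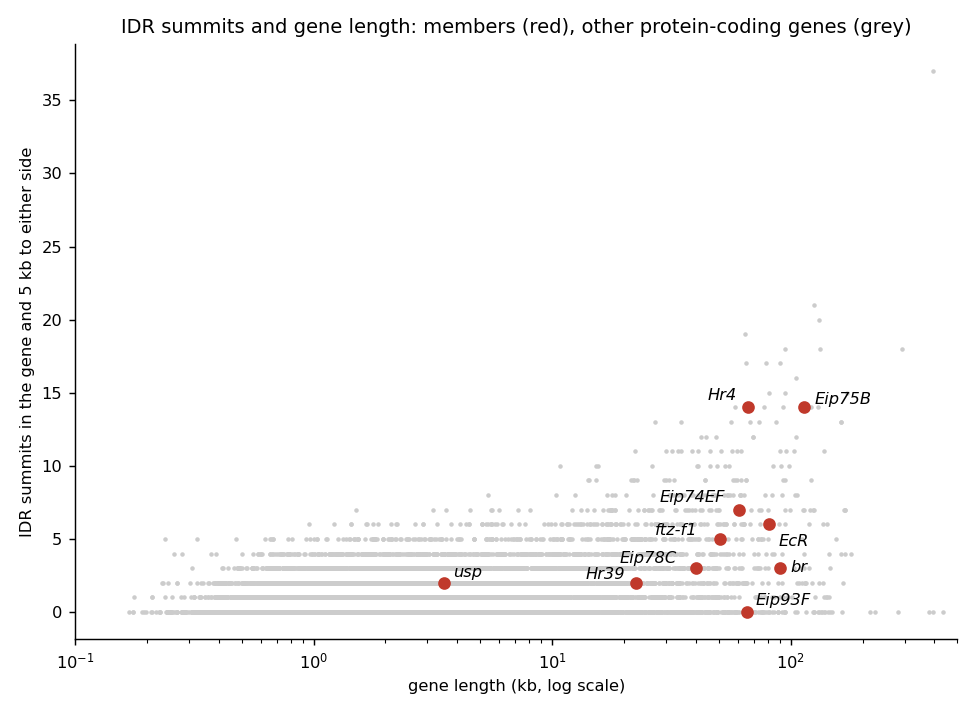
Number of IDR summits in the gene and 5 kb to either side against gene length in kb on a log axis, for the 10 members (red, named) and all other protein-coding genes (grey). Hr4 and Eip75B lie at 14, while Eip93F, about as long as Hr4, lies at 0.

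The hormone receptor genes are described first. The gene usp (FBgn0003964), which encodes the partner of EcR and is the fly counterpart of the vertebrate retinoid X receptors, covers 3.51 kb of X, from 2038798 to 2042311 on the minus strand. It was the only member with an IDR summit at each of its annotated starts. At usp-RA the summit at 2041494, 182 bp upstream of the start, had a pooled signal value of 416.0. At usp-RB the summit at 2042457, 146 bp upstream, had 293.6. The first of these also lay 374 bp from a start of CG4313, and the second 146 bp from a start of Actn, the gene for alpha-actinin, so that neither summit belongs to usp alone. The strongest summits at usp-RA had 241.0 in replicate 2 and 192.1 in replicate 3, and at usp-RB 144.8 and 144.9. In replicate 3 the peak nearest the pooled usp-RA summit had only 94.0, because its stronger summit lay farther off, at 2041377. The bases within 50 bp of the usp-RA summit, X:2041444-2041544, are shown because this is the stronger of the start peaks of usp and exceeds that of EcR. In this and each later sequence, read on the plus strand of dm6, capitals mark every match to the words searched, here TATAAA and the reverse complement of CGATA, the word of the insulator protein BEAF-32.
usp-RA start: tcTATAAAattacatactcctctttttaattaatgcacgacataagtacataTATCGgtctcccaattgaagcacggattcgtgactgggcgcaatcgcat

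EcR (FBgn0000546), the gene for the hormone-binding subunit, covers 81.2 kb of 2R, from 6087873 to 6169087 on the minus strand, with 6 transcripts from 3 start clusters. The middle cluster, EcR-RD and EcR-RE, had the only IDR start peak, at 6157457, 328 bp upstream, with 323.2 in the pool, 188.4 in replicate 2 and 151.2 in replicate 3. The outer promoters had relaxed peaks only. At the most upstream start, EcR-RA, the pooled peak had 111.6, with 53.0 and 62.8 in replicates 2 and 3. At the cluster of EcR-RB, EcR-RC and EcR-RG it had 108.6, with 48.1 and 73.5. The strongest summit of the gene was intronic, at 6151314 with 630.9 in the pool, 331.6 in replicate 2 and 302.3 in replicate 3. It lay 5815 bp inside the EcR-RD start, in intron 3 of EcR-RA, which is 56.8 kb long and held 2 further summits upstream of the EcR-RB start, 291.7 at 6134641 and 190.6 at 6133120. The last of these only just passed the IDR threshold. A summit of 375.9 lay in an exon at 6156271, and the sixth, with 237.7, lay behind the gene and 153 bp from a start of Ars2. EcR had 53 relaxed pooled peaks in its extended span, of which 11.3% were IDR peaks, the lowest share among the members with any.

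The early genes differed widely. At Eip75B (FBgn0000568), which encodes nuclear receptors that bind haem, 7 transcripts begin at 7 separate starts over 103 kb, and 1 of these starts had an IDR peak. The gene lies on 3L from 17950953 to 18064696 on the minus strand and is 114 kb long. The start of Eip75B-RC, the fifth from the 5' end, had its summit 29 bp inside the transcript at 17999792. Its signal value was 2428.4 in the pool (rank 207 of 7630), 1338.2 in replicate 2 (rank 205) and 1103.8 in replicate 3 (rank 203), so that the rank was nearly equal in all 3 lists. The starts of Eip75B-RA and Eip75B-RD had weak relaxed peaks, with 148.8 and 94.2 in the pool. The starts of Eip75B-RB, Eip75B-RE, Eip75B-RF and Eip75B-RG had no peak in any relaxed list.

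Upstream of the Eip75B-RC start lay a run of intronic summits. Intron 3 of Eip75B-RF, 65.2 kb long, held 7 of the 14 summits. Among them, those at 18003515 and 18003719 came from overlapping peak intervals. Introns 4 and 5 held 3 and 2, downstream of the Eip75B-RC start. The summit at 18005220 had 2038.4 in the pool, 1105.4 in replicate 2 and 928.2 in replicate 3. At 18009182 the values were 1595.1, 938.7 and 660.8. The summit at 18019822, 6210 bp inside the Eip75B-RG start, had 1989.2, 961.5 and 1028.8 and was thus stronger in replicate 3. Downstream of the Eip75B-RC start the strongest was at 17988337, with 841.1, 439.0 and 405.6. Both of these last carried the same word, AGATGGCGCCA, which joins a core variant of the CTCF insulator motif, AGATGGC, to the word GCGCCA.

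The windows of the start summit (3L:17999742-17999842) and of these summits (3L:17988287-17988387 and 3L:18019772-18019872) are printed to set an AT-rich summit without any of the words searched beside those with the joined word. The latter were chosen after their values were seen.
Eip75B-RC start: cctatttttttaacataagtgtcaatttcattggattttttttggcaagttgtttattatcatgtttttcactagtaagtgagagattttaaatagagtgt
Eip75B intron 4: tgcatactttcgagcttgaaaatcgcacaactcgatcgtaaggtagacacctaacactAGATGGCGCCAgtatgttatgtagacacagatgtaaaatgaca
Eip75B intron 3: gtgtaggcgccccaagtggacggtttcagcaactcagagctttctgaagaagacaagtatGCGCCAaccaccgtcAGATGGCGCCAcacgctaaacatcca
The start window had a GC content of 25.7%, and the windows with the joined word 41.6% and 54.5%.

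Eip74EF (FBgn0000567), which encodes Ets-domain factors from an upstream and a downstream promoter, covers 60.7 kb of 3L, from 17558672 to 17619325 on the minus strand. Its upstream promoter had a weak IDR peak 293 bp before the start, with 227.8 in the pool, 137.8 in replicate 2 and 91.1 in replicate 3. The downstream promoter, Eip74EF-RB and Eip74EF-RD, had only a relaxed peak of 90.8, far below the IDR threshold. The strong summits were intronic. At 17611460, 7865 bp inside the upstream start in intron 1, the signal value was 1120.8 in the pool, 626.7 in replicate 2 and 501.9 in replicate 3. At 17567037, downstream of both promoters in intron 5, it was 970.6, 575.4 and 393.8. A summit of 332.2 before the gene lay 24 bp from a start of Vps60 and 175 bp from a start of anchor, and 1 of 260.2 behind it lay 200 bp from a start of CycT.

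The windows of the strongest Eip74EF summits at a start (3L:17619568-17619668) and in an intron (3L:17611410-17611510) follow, with the AT word ATATTA in capitals.
Eip74EF-RA start: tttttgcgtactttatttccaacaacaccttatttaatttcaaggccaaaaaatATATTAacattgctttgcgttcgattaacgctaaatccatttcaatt
Eip74EF intron 1: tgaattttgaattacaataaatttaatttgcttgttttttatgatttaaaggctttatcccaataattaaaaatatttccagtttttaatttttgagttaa
The intronic window, with 17.8% GC, was among the most AT-rich of the members' 56 windows, while its flanks had 58.4%.

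The gene br (FBgn0283451), which encodes the Broad family of BTB zinc finger factors, covers 89.7 kb of X, from 1575132 to 1664869 on the plus strand. None of its 6 start clusters, from which 16 transcripts begin, had a relaxed peak in any list. Only 8 relaxed pooled peaks lay in its extended span, of which 3 were IDR peaks. The strongest, 477.8 at 1660470, lay in an exon and differed between replicates, with 158.1 in replicate 2 and 318.5 in replicate 3. The summit at 1618829, in an intron 3479 bp before the start of br-RS, had 388.0 in the pool, 224.4 in replicate 2 and 164.5 in replicate 3. The third, 414.8 at 1669383, lay behind the gene, 86 bp from a start of CG3740 and 187 bp from a start of hfw.

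At Eip78C (FBgn0004865), which encodes a nuclear receptor related to that of Eip75B, no list had a peak at either start cluster. The gene covers 39.9 kb of 3L, from 21226609 to 21266503 on the plus strand. Its strongest summit lay in intron 3 of Eip78C-RA at 21253879, with 640.5 in the pool, 356.9 in replicate 2 and 288.2 in replicate 3. A second intronic summit, 221.8 at 21251494, had a counterpart within 100 bp only in replicate 2 (124.8), and it was the only 1 of the 56 without a match in both replicates. The third, 392.6 at 21223503, lay 3106 bp before the first start.

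Eip93F (FBgn0264490), whose product E93 directs adult development and cell death, was the member without peaks. It covers 65.4 kb of 3R, from 21949114 to 22014539 on the plus strand, and neither replicate nor the pool had a single relaxed peak in its extended span. The nearest relaxed pooled summits lay 59.7 kb before the gene and 8.62 kb behind it. Such empty spans were not rare: 17.9% of the 1013 protein-coding genes of at least 20 kb had no relaxed pooled summit. Relaxed lists end at 30000 peaks, so that weaker signal there was not detectable.

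Of the 3 remaining nuclear receptor genes, Hr4 had the most and the strongest summits. Hr4 (FBgn0264562), whose product represses early genes and is needed for prepupal development, covers 66 kb of X, from 1941940 to 2007956 on the plus strand. Neither of its start clusters had an IDR peak, and the relaxed pooled peaks there had 109.1 at the start shared by 7 transcripts and 103.9 at that of Hr4-RE and Hr4-RF. Intron 2 of Hr4-RK, 10.4 kb long, held 5 IDR summits, or 4.81 per 10 kb, the first of them 1816 bp inside the upstream start. The strongest summit of all 10 genes was among them, at 1947757, with 3137.4 in the pool (rank 114), 1741.3 in replicate 2 (rank 113) and 1408.2 in replicate 3 (rank 122). The others had 2154.9 at 1951902, 1164.0 at 1943756, 830.0 at 1953120 and 375.3 at 1944419. Intron 3 held a summit of 1251.6 at 1963938, with 729.3 in replicate 2 and 520.6 in replicate 3. At 1968316 in intron 4 the replicates differed, with 256.3 in replicate 2 and 482.0 in replicate 3.

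Of the summits in the Hr4 flanks, 1 before the gene (405.7) lay 109 bp from a start of CG3587 and 158 bp from a start of CG3857. Behind the gene, summits of 665.3 and 243.7 shared a single peak interval. The first lay 289 bp from a start of lncRNA:CR45478 and 304 bp from a start of PIG-K. The second lay 83 bp from a start of lncRNA:CR45478 and 426 bp from the annotated start of mir-2496. The window of the strongest summit (X:1947707-1947807) and that of the summit at 1953120 (X:1953070-1953170) are shown for their contrast in base composition, with 29.7% and 64.4% GC. The second has the highest GC content of the 56 and was chosen after its values were seen.
Hr4 intron 2, strongest: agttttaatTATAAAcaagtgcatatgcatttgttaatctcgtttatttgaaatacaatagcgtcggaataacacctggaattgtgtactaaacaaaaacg
Hr4 intron 2, joined word: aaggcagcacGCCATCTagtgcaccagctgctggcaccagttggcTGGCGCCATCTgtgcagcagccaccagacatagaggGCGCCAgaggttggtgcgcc
The second window holds the joined word AGATGGCGCCA as its reverse complement.

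The gene ftz-f1 (FBgn0001078), which encodes a nuclear receptor that acts as a partner of Ftz in the early embryo and as a competence factor in prepupae, covers 50.7 kb of 3L. It runs from 18750607 to 18801309 on the minus strand. None of its 3 start clusters had an IDR peak, but the start of ftz-f1-RC and ftz-f1-RD missed the threshold narrowly, with 182.7 in the pool, 118.0 in replicate 2 and 71.0 in replicate 3. The most upstream start, ftz-f1-RB, had 129.2, 83.8 and 53.4. All 5 IDR summits were intronic, and none exceeded 449.5. That strongest one, at 18756678, had 268.1 in replicate 2 and 184.2 in replicate 3, and lay in intron 3 of ftz-f1-RB, downstream of every start. It was followed by 397.9 at 18795572, which lay 5737 bp inside the ftz-f1-RB start.

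Hr39 (FBgn0261239), a close relative of ftz-f1 that binds similar sites, covers 22.4 kb of 2L, from 21237250 to 21259675 on the plus strand, with 1 start. The relaxed peak there had 152.8 in the pool, 54.9 in replicate 2 and 108.2 in replicate 3, and no IDR summit lay inside the gene. Both IDR summits in its extended span lay behind it. That at 21261018 (250.4) was 150 bp from a start of l(2)k14505, and that at 21263996 (339.0) was 63 bp from the annotated start of mir-4974. Of the 11 summits in flanks of all members, 9 lay within 500 bp of a start of another gene, so that the counts with flanks are not specific to the members.

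Signal values of the 56 summits had a median of 395.2, near that of all IDR peaks (373.3). The strong ones were at Hr4 and Eip75B: the 763 strongest IDR peaks, 10% of the list, included 6 summits of the members (10.7%), all at these genes. Without Hr4 and Eip75B the median was 327.7, and 12 of 28 summits lay in the stronger 50% of the IDR list. Windows of 25 kb centred on a summit held at most 7 IDR summits at Hr4 and 6 at Eip75B, the central one included, values reached or exceeded at 13% and 21.9% of all IDR summits.

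In 55 of the 56 cases a summit lay within 100 bp in both replicates. The log2 ratio of replicate 2 to replicate 3 signal values had a median of 0.25 with an SD of 0.47 over these summits, beside 0.28 with an SD of 0.44 over all 7351 IDR peaks matched in both. It was below 0 at 17 summits (30.9%), against 22.5% of all, and ranged from −1.21 at the Eip75B summit 17962501 (67.4 and 155.5) to 1.36 at usp-RA. The usp-RA ratio rests on the replicate 3 peak within 100 bp, with 94.0, and not on the stronger one farther off, with 192.1. Among the 7630 strongest peaks of each replicate, 52 of the summits had a counterpart in replicate 2 and 50 in replicate 3, 47 in both. The single summit without one in either was at Eip75B, at 18022300 (193.6). These counts were not made for all IDR peaks, so that no share stands beside them.

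**Figure D4:**
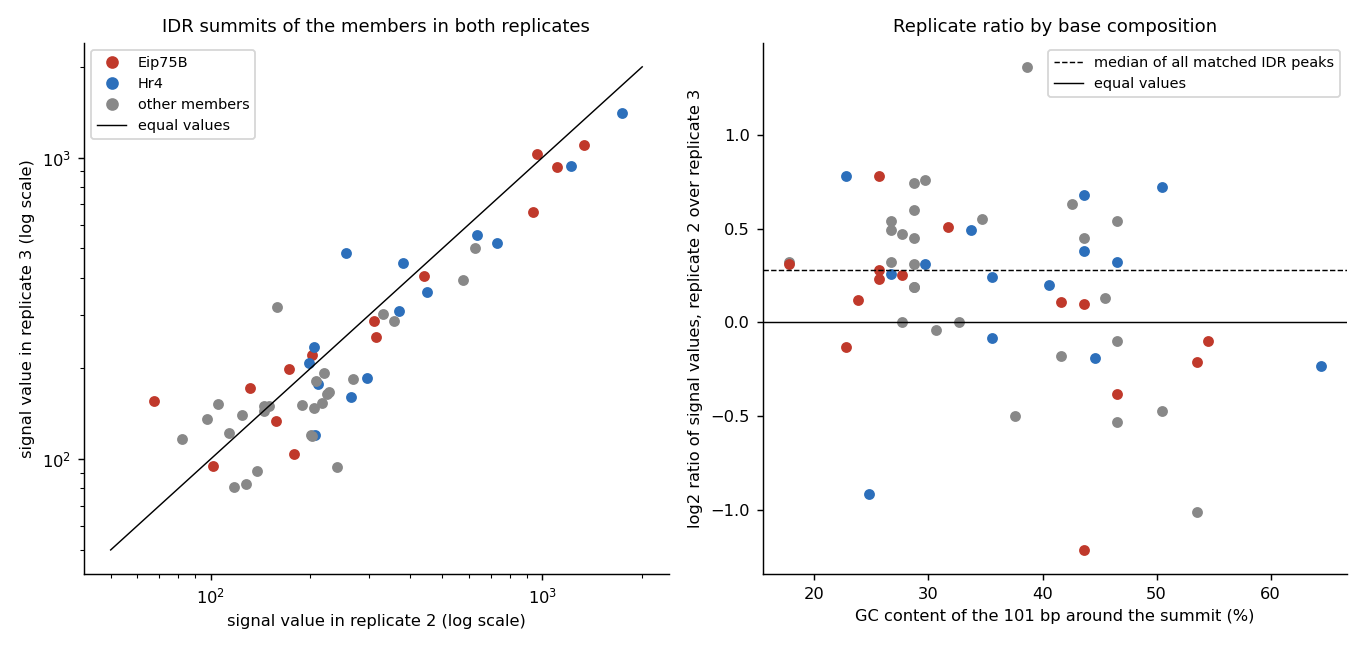
Left, signal value in replicate 2 against replicate 3 on log axes for the 55 IDR summits of the members found in both; the line marks equal values. Right, log2 ratio of replicate 2 to replicate 3 against the GC content (%) within 50 bp of each summit; the dashed line is the median of all matched IDR peaks, 0.28. The strongest summits of Hr4 (1741.3 in replicate 2 and 1408.2 in replicate 3) and of Eip75B (1338.2 and 1103.8) lie on the replicate 2 side of the line. Most windows of at least 50% GC lie below 0.

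Summits of the members, like those of the whole list, lay mostly in AT-rich sequence. The windows of 50 bp to either side of a summit had a mean GC content of 36.2% ± 10.7 (SD over 56 summits), with 31.8% ± 9.51 over all IDR peaks, and ranged from 17.8% to 64.4%. In 38 of the 56 cases the window had less GC than its own flanks, centred 300 bp to either side. Flanks were not measured for all IDR peaks, so that no share stands beside this count. Windows with at least 50% GC made up 12.5% of the members' summits and 5.44% of all. At the 6 such summits matched in both replicates, 5 were stronger in replicate 3, with a median log2 ratio of −0.22. At the 49 others the median was 0.28. Over all IDR peaks the medians were −0.14 for 385 windows with at least 50% GC and 0.29 for the rest, so that base composition moved with the replicate ratio across the whole list. Its part in the members' values was not tested.

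The words searched, on both strands of the same windows, are given with their share among all IDR windows. ATATTA and GCGCCA were picked from an earlier pass over these data, and the joined word after values were seen. AGGTCA, the core word bound by nuclear receptors including EcR with usp, was in 2 of 56 windows (3.57%, against 1.95% of all IDR windows), both in introns of ftz-f1. The longer word CAAGGTCA, bound by the proteins of ftz-f1 and Hr39 and containing AGGTCA, was in none (0.183% of all), nor was the Ets word CCGGAAGT (0.17%). TATAAA was in 11 (19.6%, against 26.1%), ATATTA in 12 (21.4%, against 24%), CGATA in 9 (16.1%, against 12.9%) and AGATAA, the GATA word, in 2 (3.57%, against 9.12%). The GAGA factor word GAGAGAG was in 3 (5.36%, against 0.839%), at EcR and Eip75B. With 100 bp to either side GAGAGAG was still in 3, while its share over all IDR windows rose to 2.65%, and with 25 bp it was in 1 (0.419% of all). AGATGGC was in 4 (7.14%, against 2.06%), GCGCCA in 5 (8.93%, against 3.7%), and the joined word AGATGGCGCCA in 3 (5.36%), namely those shown at Eip75B and Hr4, of 25 among all IDR windows (0.328%). The Zelda word CAGGTAG and the DREF word TATCGATA, which contains CGATA, were in none (0.393% and 1.31% of all). With 100 bp to either side TATCGATA was in 2, with 2.7% of all IDR windows. A match describes letters only, and 22 of the 56 windows held none of the words. The share of such windows among all IDR windows was not computed.

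The ftz-f1 windows with AGGTCA (3L:18759369-18759469 and 3L:18771705-18771805) are printed because they are the only summits of these genes with the nuclear receptor word.
ftz-f1 intron 3: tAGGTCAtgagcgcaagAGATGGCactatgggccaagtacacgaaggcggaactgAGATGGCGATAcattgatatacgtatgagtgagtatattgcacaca
ftz-f1 intron 2: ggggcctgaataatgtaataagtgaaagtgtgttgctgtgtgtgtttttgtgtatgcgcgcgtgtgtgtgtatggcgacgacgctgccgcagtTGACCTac
In both the word lies near the edge of the window, and both peaks were weak, with 237.5 and 233.6.

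Other genes of the hormone pathway are set beside the same 25.2% of all protein-coding genes. Of 72 related genes found in the annotation, 26 had a start peak (36.1%). The related genes were not matched for number of starts, and of protein-coding genes with 2 or more start clusters 42.3% had a start peak. Listed but not found by symbol were EcI and phm, DOR, Rpd3 and br140 among the coregulators, and Eip28/29, Eip55E, Eip71CD and let-7-C among the response genes. Among 17 other genes for ecdysone synthesis, import, turnover and the related juvenile hormone response, 4 had a start peak (23.5%). These were E23, which encodes a membrane transporter that lowers the ecdysone response (4340.5, with 2499.1 in replicate 2 and 1843.1 in replicate 3), Kr-h1 (257.2), gce (238.9, without a replicate 3 peak within 100 bp) and shd, which encodes the last enzyme of ecdysone synthesis (202.4). Among 14 other nuclear receptor genes it was 6 (42.9%): Hnf4 (1632.1), Hr96 (1270.6), eg (1014.7), Hr78 (1007.9), ERR (569.3) and Hr83 (202.6). The start peaks at Hnf4, Hr96, eg, Hr78 and ERR were thus each stronger than any start peak of the 10 members other than that of Eip75B-RC.

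Among 11 genes for coregulators of EcR or general cofactors, 6 had a start peak (54.5%). They were tai, which encodes a coactivator of EcR (1051.3, with 595.0 and 442.7 in replicates 2 and 3), Sin3A (679.0), Nup98-96 (613.5), Alh (516.3), Hsc70-4 (434.5) and trr (282.3). Among 30 further early and late response genes it was 10 (33.3%). Ldh, for lactate dehydrogenase (2707.3), vri, for a bZIP factor (1390.4), hid, a cell death gene (1349.4), and Eip63F-1 (537.2) had the strongest, followed by Thor (375.2), Eip63E (339.3), Sgs3 (300.1, without a replicate 2 peak within 100 bp), woc (275.8), crol (260.8) and rpr (215.1).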

How the data were processed

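Per the text deposited with the lists, each relaxed list was made from 1 or both replicate alignments with 1 control file, on build dm6. The same text names all 3 relaxed lists as the source of the IDR peaks. Per the labels, chromatin was sonicated to 200 to 800 bp. The signal value is a score from the authors' caller, with no fixed range. The −log10 q value deposited beside it is capped and was not used. The deposited summit offset gave each summit. The sources used here name neither caller nor aligner, and depth is unknown.

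Gene models are those of Ensembl release 115. Bases were read from the Release 6 genome of RefSeq. RefSeq gave all 10 genes the same coordinates, and no peak lay beyond a chromosome end. Positions count from 1. Introns are numbered in the longest transcript that spans the summit. For replicates alone, the 7630 strongest peaks of each were used. With 1 group no test between groups exists, so counts stand beside percentages over all genes or peaks. Members, lists and words were chosen with earlier results of these data known. Of 81 related genes listed, 72 were found by symbol. All members are described, with other genes where a start lies within 500 bp of a member's summit, the 3 with the most summits, and related genes with a start peak. Start counting was tested on simulated data. Alternatives were each replicate alone, the stronger 50% of IDR peaks, other windows and extensions, interval overlap, coding transcripts and other cluster limits. Python 3.11.15, numpy 2.4.6, pandas 2.3.3 and matplotlib 3.10.9 were used.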

Additional observations from a re-analysis of the deposited data

How the results depend on the processing

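No paired analysis was possible because the series has 1 group. From either replicate alone, 4 to 5 members had a start peak, 5 to 6 start clusters, 61 to 62 summits lay in the extended spans and 21 to 27 related genes had a start peak. In the stronger 50% of the IDR list, 2 members (Eip75B and usp), 2 start clusters, 16 related genes and 32 summits were left, since that list holds fewer peaks. A start window of 200 bp gave 2 members (Eip75B and usp), 3 clusters and 14 related genes. AGGTCA was in 0 windows of 25 bp to either side (0.983% of all IDR windows) and in 4 of 100 bp (4.1%). The narrower window also moved GAGAGAG from 3 to 1 (0.419% of all), AGATAA from 2 to 1 (4.61%), TATAAA from 11 to 6 (14.3%) and GCGCCA from 5 to 3 (2.14%). The wider one moved AGATAA to 6 (15.6% of all), CGATA from 9 to 14 (25.1%) and TATCGATA from 0 to 2 (2.7%). The shares over all IDR windows thus changed with window width too. The remaining 24 of 33 alternative values of the main counts, replicates alone included, stayed within 1.5 times the value given. Without the extension Hr39 had 0 summits, usp 1 and Eip74EF 4, and the other members had counts within 1.5 times. In the stronger 50% Hr4 had 12, Eip75B 8, br 3, usp 1, Hr39 0, and EcR, Eip74EF, Eip78C and ftz-f1 2 each. Counting summits within 250 bp once, chosen after seeing the data, gave 54.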

Other observations

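Windows with the joined word AGATGGCGCCA numbered 25 over the whole IDR list, and their median log2 ratio of replicate 2 to replicate 3 was −0.23, against 0.28 over all matched IDR peaks. Of the 3 at the ecdysone genes, the summits at Eip75B had 0.11 and −0.10 and that at Hr4 had −0.23. Across peaks, GC content and the log2 ratio had a Spearman correlation of −0.33 over the 55 matched summits of the members and −0.23 over all 7351 matched IDR peaks. These are descriptions across peaks of the same 2 libraries, which share their control.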
